A study of Canis lupus familiaris with 12 samples.

Results

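The cytosolic ribosomal protein genes were followed by RNASeq in MDCKII cells, a dog kidney epithelial line that lacked one or both of the junctional proteins cingulin (CGN) and paracingulin (CGNL1). Members were chosen by symbol only: RPL or RPS followed by a number and at most a trailing letter or an L or X form, together with RPLP0, RPLP1, RPLP2 and RPSA, leaving out the RPS6K kinases and the mitochondrial MRP genes. This gave 80 of the 13672 genes listed, 49 of the large (60S) subunit and 31 of the small (40S) subunit. Of these, 5 are paralog forms (RPL7L1, RPL22L1, RPL26L1, RPL36AL and RPS27L). RPL41 and RPS12 were not analysed here.

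The 12 libraries came from untreated cells of 4 genotypes, with 3 libraries each: WT, CGN-KO (without cingulin), CGNL1-KO (without paracingulin), and a line without either protein, the CGN/CGNL1 dKO (dKO below). The KO lines were made with CRISPR/Cas9, and each KO genotype was represented by 1 line, so the effect of a genotype and the history of a line cannot be told apart. The sources do not say that the libraries of a genotype came from separate cultures, so p-values measure only the spread among these libraries. The name of 1 dKO column has no replicate number, and this library is called unnumbered.

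Most ribosomal proteins sit at a fixed place on the ribosomal RNA and are present once per ribosome, so cells make them in matched amounts. Their mRNAs begin with a run of pyrimidines, the terminal oligopyrimidine (TOP) motif, through which LARP1 and the kinase mTOR set how strongly they are translated. Their transcripts are among the most abundant in growing cells, and a shortage of single members causes Diamond-Blackfan anemia.

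Values are given in CPM, the reads of a gene relative to the scaled library size. Between 16837532 and 30086076 reads per library stood behind them, and the scarcest member in any library had 59 reads. The labels held: CGN was at 214 ± 17.3 CPM in WT (SD, n = 3), 204 ± 7.71 in CGNL1-KO, 50.6 ± 5.17 for CGN-KO and 42.2 ± 2.87 in dKO. CGNL1 was at 9.74 ± 2.30 CPM in WT, 5.99 ± 0.944 for CGN-KO, 2.34 ± 0.634 in CGNL1-KO and 1.49 ± 0.335 in dKO. All 9 epithelial markers were listed, with summed levels of 6078 to 6261 CPM in WT, 6028 to 6179 CPM in CGNL1-KO, 5754 to 5847 CPM in CGN-KO and 5815 to 5892 CPM in dKO. The CGN-KO and dKO sums lay below every WT sum, but single markers went both ways. By the limma test described below, 2 of the 9 were higher and 2 lower in CGN-KO, and 1 and 2 in dKO. EPCAM was at 588, 612 and 555 CPM in WT, 765, 756 and 791 CPM in CGN-KO, and 733, 768 and 712 CPM in dKO. KRT18 was at 1608, 1727 and 1562 CPM in WT, 1214, 1336 and 1298 CPM in CGN-KO, and 1460, 1407 and 1488 CPM in dKO. Of the other lineages, 2 of 7 mesenchymal, 2 of 4 endothelial and 2 of 5 immune markers were listed, with summed levels of at most 12.2 CPM in any library.

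The 80 genes together took a smaller share of the reads in dKO than in WT in each of the 3 libraries. Their summed level was 51110 CPM, 51522 CPM and 55617 CPM in the 3 WT libraries, 52251 CPM, 48823 CPM and 50261 CPM in CGN-KO, and 50595 CPM, 52098 CPM and 53157 CPM in CGNL1-KO. In dKO it was 49817 CPM in the unnumbered library, 47612 CPM in replicate 2 and 46821 CPM in replicate 3. The dKO totals lay below all WT and all CGNL1-KO totals, and 1 of them lay above CGN-KO replicate 2. As a share of the scaled library this was 5.27 ± 0.249% in WT, 5.04 ± 0.172% for CGN-KO, 5.20 ± 0.129% for CGNL1-KO and 4.81 ± 0.155% in dKO (SD, n = 3 each). The genes of the mitochondrial ribosome took between 0.405% and 0.449% of the reads, with the dKO libraries (0.428% to 0.440%) inside the WT range of 0.413% to 0.449%. Fewer cells of a type and less RNA per cell cannot be told apart in these bulk samples, and a CPM is a level relative to all other transcripts.

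The median member was likewise lower in each dKO library than in each WT library. Taken as log2(CPM + 1) less the WT mean of the same gene, it was -0.04, -0.03 and 0.09 in the WT libraries, -0.02, -0.10 and -0.05 for CGN-KO, -0.06, -0.01 and 0.01 in CGNL1-KO, and -0.10, -0.17 and -0.19 in dKO. WT replicate 3 stood above the other 2 WT libraries, and the median of all genes stayed within 0.01 of 0 in each library. In WT replicate 3, 68 of the 80 genes were above their own mean of the 12 libraries, compared with 14 to 17 in the dKO libraries.

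**Figure D1:**
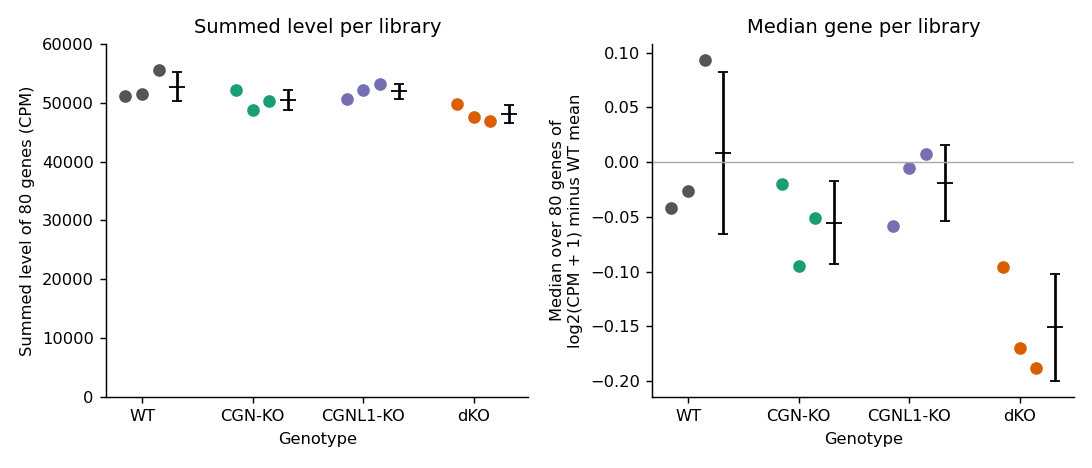
Left, summed level of the 80 ribosomal protein genes in CPM for each library by genotype. Right, the median of the 80 differences in log2(CPM + 1) from each gene's mean in WT. Points are libraries, and the bar beside them is the mean ± SD of 3 libraries. The dKO libraries sit at 46821 to 49817 CPM, below the WT libraries at 51110 to 55617 CPM.

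Levels of single members in WT ranged from 4.54 CPM for RPL39 to 1962 CPM for RPS2, with a median of 608 CPM, compared with 27.3 CPM over all listed genes. These values are not per transcript length, so no order of genes is read from them. The WT means of RPL7, RPS27A, RPL7A and RPL3 were 1773, 1476, 1407 and 1373 CPM, and those of RPL26L1, RPL38, RPL23A and RPL26 were 16.0, 55.1, 70.8 and 73.1 CPM. Replicates of a member lay close together: the median SD within genotypes was 0.07 on the log2 scale, compared with 0.10 over all 12650 genes tested and 0.08 over the 2290 genes with a mean of at least 100 CPM. The members with the widest spread were RPL39 (0.22), RPL36 (0.19), RPS28 (0.17), RPS27A (0.17) and RPL9 (0.16). Near-identical processed copies of ribosomal protein genes are common in mammalian genomes, and how reads that fit several places were counted is not given in the sources used here, which leaves the level of each member uncertain. Listed apart from the members were RPL34_1, at 243 CPM in WT where RPL34 was at 102 CPM, and RPLP0P, at 156 CPM. The sources used here do not say what these 2 entries are.

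The question of the first comparison was what the loss of both proteins does to these genes. In dKO cells 43 of 80 members differed from WT, 36 lower and 7 higher, by limma on log2(CPM + 1) at a Benjamini-Hochberg adjusted p below 0.05 over the 12650 genes (called here at any fold). Over all genes tested 26.3% were called in this comparison, 11.5% lower and 14.8% higher, against 45% and 8.75% of the members. Changes were small. RPS3A, the member that moved most, fell by 36.2%, and no member reached a 2-fold change, which 1.41% of all genes did. The median log2 difference was -0.15 over the members, with 66 of 80 below 0, and -0.00 over all genes tested. The 3 dKO values lay below the 3 WT values in 48 members, or 60%, compared with 21.8% of all genes, and above them in 8, compared with 23.2%. The summed epithelial markers were also lower in dKO than in WT, with 1 of 9 called higher and 2 lower. Their part in this result was not tested. Of the 72 members with a mean of at least 100 CPM, 34 were lower and 7 higher, whereas 33.5% of the 2290 genes at that level were called and 12.8% were lower.

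The number of falls depended on single libraries. The count of members called was 24 without WT replicate 3, 25 without dKO replicate 2 and 18 without dKO replicate 3. Of the 36 falls, 12 were called whichever of the 12 libraries was left out: RPS3A, RPL9, RPL7, RPL36A, RPL31, RPS15A, RPL6, RPL26, RPL19, RPL5, RPLP0 and RPS6. Of the 7 rises, 5 were, RPS21, RPLP2, RPS14 and RPS19 among them.

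RPS3A, a 40S protein on the solvent side that contacts initiation factor eIF3, fell furthest. Its level was 859.9, 907 and 855 CPM in WT, 614, 585 and 629 CPM in CGN-KO, 634, 635 and 635 CPM in CGNL1-KO, and 571, 569 and 533 CPM in dKO. All 9 KO libraries lay below all 3 WT libraries, and the dKO values lay below those of the other KO lines. The log2 difference from WT was -0.65 ± 0.05 (SE) in dKO (limma adjusted p = 2.37e-07), -0.52 ± 0.05 in CGN-KO (adjusted p = 2.89e-06) and -0.46 ± 0.05 in CGNL1-KO (adjusted p = 2.24e-05).

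RPL9 and RPL7 are 60S proteins, and RPS27A is made as a fusion of ubiquitin and a 40S protein. RPL9 was at 1285, 1216 and 1470.4 CPM in WT and at 1018, 1014 and 904 CPM in dKO, without overlap, and the log2 difference was -0.43 ± 0.11 (limma adjusted p = 0.00609). RPL7 was at 1686, 1632 and 2002 CPM in WT and at 1386, 1328 and 1237 CPM in dKO, a difference of -0.42 ± 0.10 (adjusted p = 0.00636). For RPS27A the WT values were 1365, 1387 and 1678 CPM and the dKO values 1147, 1129 and 1017 CPM, a difference of -0.42 ± 0.11 (adjusted p = 0.0102).

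In all 3 of these genes WT replicate 3 was the highest WT library and dKO replicate 3 the lowest dKO library. RPS27A lost its call in 2 of the 12 fits that left out a library, and RPL9 and RPL7 kept theirs. Each of the 3 genes overlapped between CGNL1-KO and WT, where RPL9 ranged from 1116 to 1432 CPM, RPL7 from 1496 to 1893 CPM and RPS27A from 1252 to 1655 CPM.

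Other named falls in dKO were RPL36A (-0.37 ± 0.09), RPL31 (-0.36 ± 0.08), RPL34 (-0.34 ± 0.10) and RPS15A (-0.33 ± 0.07), with limma adjusted p-values of 0.0059, 0.00466, 0.0176 and 0.00167. RPL31 lies at the rim of the tunnel through which the new chain leaves the ribosome. RPL31 was at 241, 231 and 285 CPM in WT and at 203, 199 and 187 CPM in dKO. The entry listed as RPL34_1 was also lower in dKO, by a log2 difference of -0.39 ± 0.08 (adjusted p = 0.0015), as was RPLP0P, at -0.26 ± 0.06 (adjusted p = 0.00425).

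The largest rise was that of RPS21, a small 40S protein. It was at 262, 294 and 340.4 CPM in WT, 459, 437 and 405 CPM in CGN-KO, 439, 395 and 359 CPM in CGNL1-KO, and 409, 401 and 430 CPM in dKO. All KO libraries were above all WT libraries. The log2 difference was 0.54 ± 0.09 in CGN-KO (limma adjusted p = 0.000296), 0.42 ± 0.09 in CGNL1-KO (adjusted p = 0.00479) and 0.47 ± 0.09 in dKO (adjusted p = 0.000732).

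RPS14, which lines the path of the mRNA out of the 40S subunit, rose in the 2 lines without CGN. Its level was 930.1, 895 and 939 CPM in WT, 1214, 1135 and 1149 CPM in CGN-KO, 919, 953 and 953 CPM in CGNL1-KO, and 1247, 1196 and 1162 CPM in dKO. The CGNL1-KO and WT values overlapped, and the other 2 lines lay above both. The log2 difference was 0.38 ± 0.06 in dKO (limma adjusted p = 9.08e-05), 0.34 ± 0.06 in CGN-KO (adjusted p = 0.000365) and 0.03 ± 0.06 in CGNL1-KO (adjusted p = 0.797).

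RPLP2, an acidic protein of the stalk that recruits the elongation factors, was at 392, 449 and 489 CPM in WT and at 561, 580.2 and 590.4 CPM in dKO, without overlap. The log2 difference was 0.39 ± 0.07 (limma adjusted p = 0.00119), compared with 0.16 for CGN-KO and -0.04 for CGNL1-KO, neither of which passed the test. RPL18 (0.23 ± 0.06), RPS19 (0.20 ± 0.05) and RPL28 (0.18 ± 0.05) also rose in dKO, with adjusted p-values of 0.0133, 0.0099 and 0.0123. RPS19 is the gene most often mutated in Diamond-Blackfan anemia. It was at 792, 761 and 758 CPM in WT and at 897, 851 and 908 CPM in dKO.

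**Figure D2:**
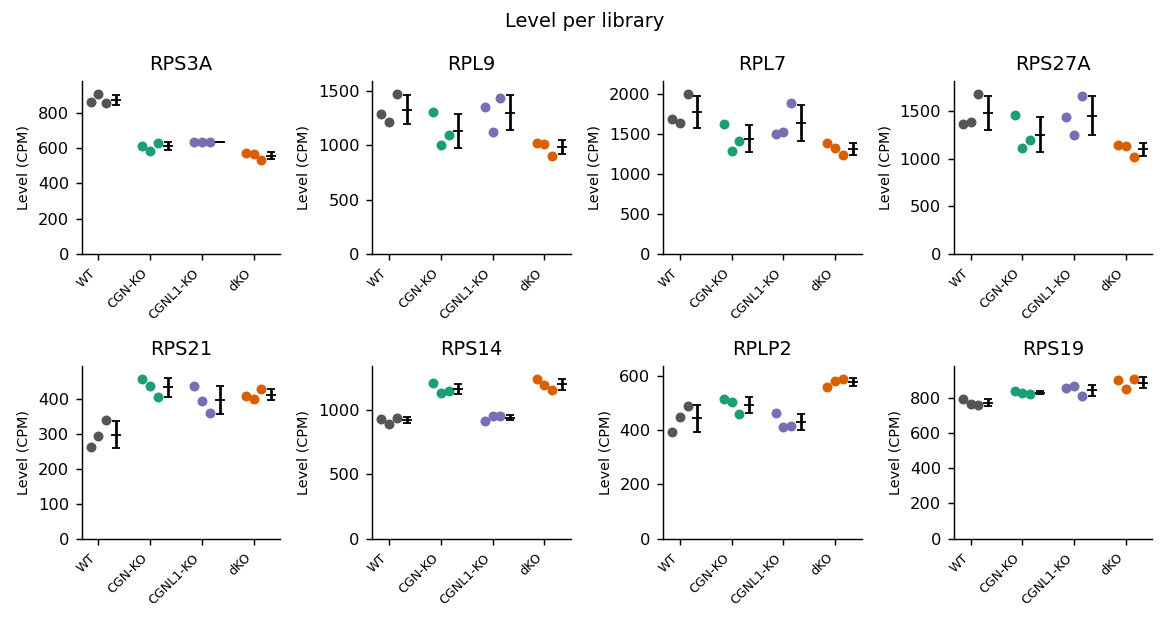
Level in CPM of RPS3A, RPL9, RPL7, RPS27A, RPS21, RPS14, RPLP2 and RPS19 in each of the 12 libraries by genotype, with axes from 0. Points are libraries and bars are the mean ± SD of 3 libraries. RPS3A is lower and RPS21 higher in all 9 KO libraries than in any WT library, while RPS14 is higher in CGN-KO and dKO and overlaps WT in CGNL1-KO.

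**Figure D3:**
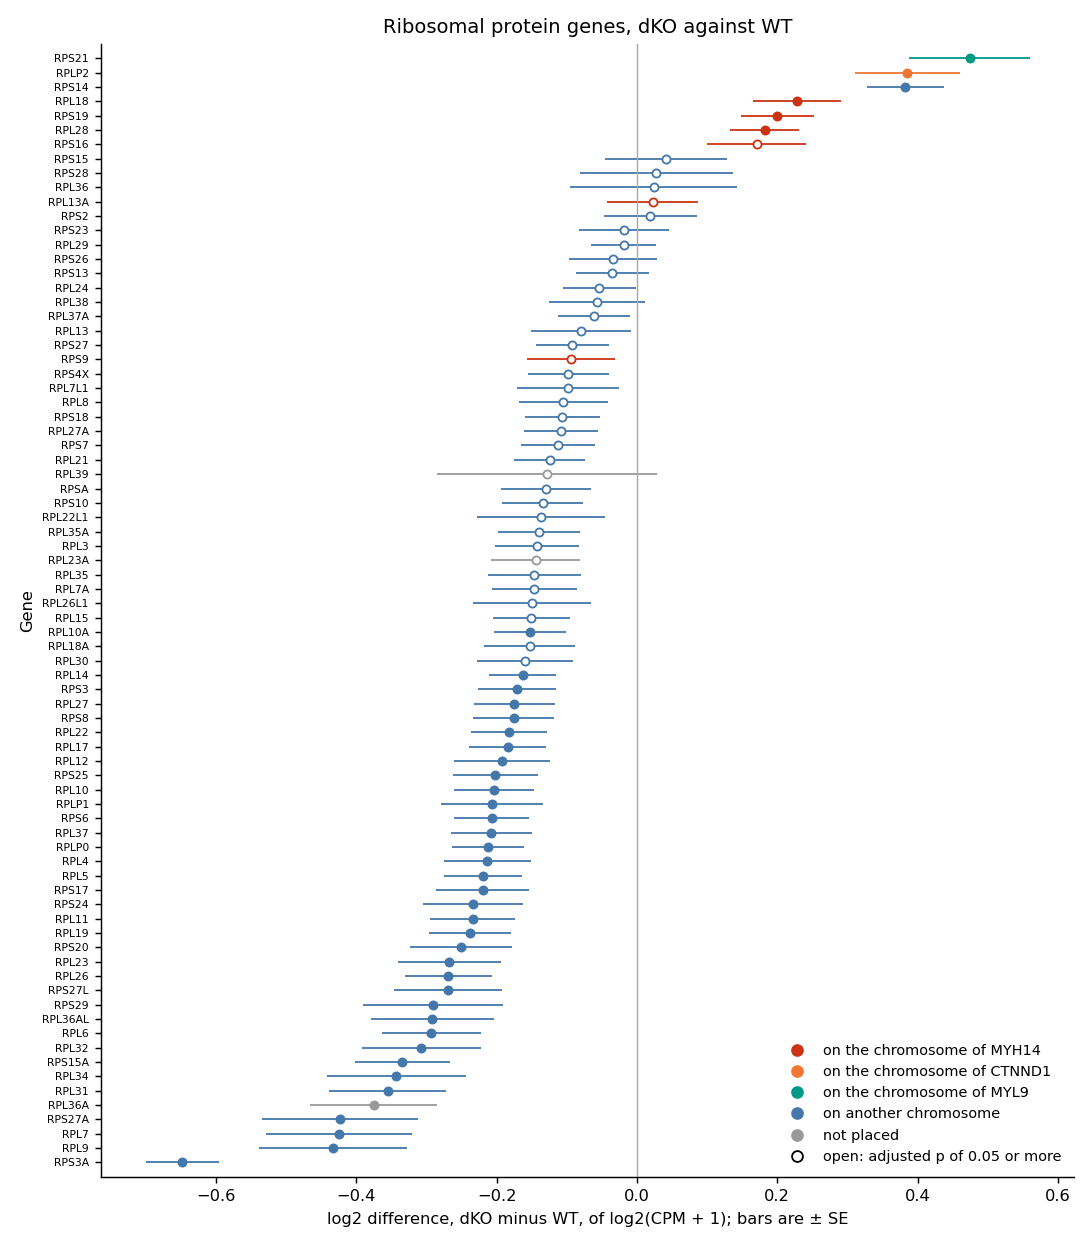
Difference in log2(CPM + 1) between dKO and WT for single ribosomal protein genes, 1 row each, sorted, with the SE from limma. Filled points passed the test and colours give the chromosome. RPS3A stands alone at the low end (-0.65), the 3 highest points are RPS21, RPLP2 and RPS14 (0.47 to 0.38), and 66 genes lie below 0.

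By role, both subunits took part. In dKO 24 of 49 genes of the 60S subunit were lower and 3 higher (median -0.15), as were 12 and 4 of 31 genes of the 40S subunit (median -0.11). In the acidic stalk and its base, RPLP0 (-0.21), RPLP1 (-0.21) and RPL12 (-0.19) fell while RPLP2 rose. Both proteins that bind 5S RNA and, outside the ribosome, restrain the p53 ligase MDM2 fell: RPL5 from 1188, 1199 and 1150.2 CPM to 1049, 1006 and 984 CPM (-0.22 ± 0.06, limma adjusted p = 0.00817) and RPL11 from 617, 605 and 674 CPM to 570.0, 538 and 504 CPM (-0.23 ± 0.06, adjusted p = 0.00852).

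These groups are small, and their counts stand beside 45% lower and 8.75% higher among all members. Of 8 genes for the exit tunnel and its rim, 5 fell (RPL4, RPL17, RPL19, RPL26 and RPL31). Of 4 genes for decoding and mRNA entry, RPS3 fell by 0.17 on the log2 scale and the other 3 were not called. Among these was RPS2, at 1848, 1997 and 2041 CPM in WT and 2062, 1947 and 1951 CPM in dKO, with a 95% interval of the log2 difference from -0.12 to 0.16. Of 15 genes mutated in Diamond-Blackfan anemia, 7 fell, RPS19 rose and 7 were not called, so 46.7% were lower, near the 45% of all members and above the 11.5% of all genes. RPS6, the substrate of the S6 kinases, fell from 849, 803 and 810 CPM to 741, 702 and 690.2 CPM (-0.21 ± 0.05, adjusted p = 0.00902).

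Among the paralog forms, RPS27L and RPL36AL fell in dKO (-0.27 ± 0.08 and -0.29 ± 0.09, limma adjusted p = 0.0168 and 0.0214), and RPL7L1, RPL22L1 and RPL26L1 were not called. RPS27L, a p53 target that differs little from RPS27, was at 163, 158 and 186 CPM in WT. The log2 ratio of RPS27L to RPS27, less its WT mean, was -0.11, -0.02 and 0.13 in WT, -0.17, -0.41 and -0.29 for CGN-KO, -0.20, -0.41 and -0.25 in CGNL1-KO, and -0.14, -0.16 and -0.23 in dKO. All 9 KO libraries were below the WT libraries in this ratio. The ratio of RPL7L1 to RPL7 was higher by 0.33 on average in dKO (0.32, 0.24 and 0.41, compared with 0.03, 0.13 and -0.16 in WT), where RPL7L1 itself did not pass the test. For the other pairs the dKO and WT ratios overlapped.

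FAU and RACK1 encode ribosomal proteins that the symbol rule leaves out. In dKO RACK1, a signalling scaffold on the 40S head, was lower (-0.25 ± 0.06, limma adjusted p = 0.00587). FAU, a fusion of a ubiquitin-like protein with a 40S protein, was higher, at 635, 577 and 610.0 CPM compared with 463, 485 and 528 CPM in WT (0.30 ± 0.06, adjusted p = 0.00127).

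Of the 7 members higher in dKO, 6 lie on 3 chromosomes. A RefSeq table for the assembly UU_Cfam_GSD_1.0, matched by symbol, placed 77 of the 80 members on 29 chromosomes, which are named by a gene they hold because the build of the counts differs. The chromosomes of MYH14, CTNND1 and MYL9 were chosen with their earlier values known, so the values that follow are descriptions. Of the members higher in dKO, 4 lie on the chromosome of MYH14 (RPL18, RPS19 and RPL28 among them), RPLP2 on that of CTNND1 and RPS21 on that of MYL9, and RPS14 lies elsewhere.

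The chromosome of MYH14 holds 8 members. In dKO 4 of them were higher and none lower, with a median log2 difference of 0.18. RPS16 (0.17), RPL13A (0.02) and RPS9 (-0.09) were among those that did not pass the test. The other 680 genes tested there had a median of 0.20, with 280 higher and 29 lower. In CGN-KO and CGNL1-KO the same 8 members had medians of 0.03 and 0.08 and the other genes medians of 0.00 and 0.00. Of the other 70 members, 67 were placed on other chromosomes and 3 (RPL23A, RPL36A and RPL39) were not placed. In dKO 36 of these 70 were lower, RPL36A among them, RPS14 was higher, and the median was -0.16, with 65 below 0.

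The chromosome of CTNND1 holds 1 member, RPLP2, and also FAU. The other 397 genes tested there had a median of 0.29 in dKO, 263 of them higher and 7 lower, and medians of 0.09 (CGN-KO) and 0.05 (CGNL1-KO). On the chromosome of MYL9, with RPS21 as its only member, the other 316 genes had medians of 0.19 (CGN-KO), 0.20 (CGNL1-KO) and 0.14 (dKO). The part of these chromosome-wide differences in the members' values was not tested.

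**Figure D4:**
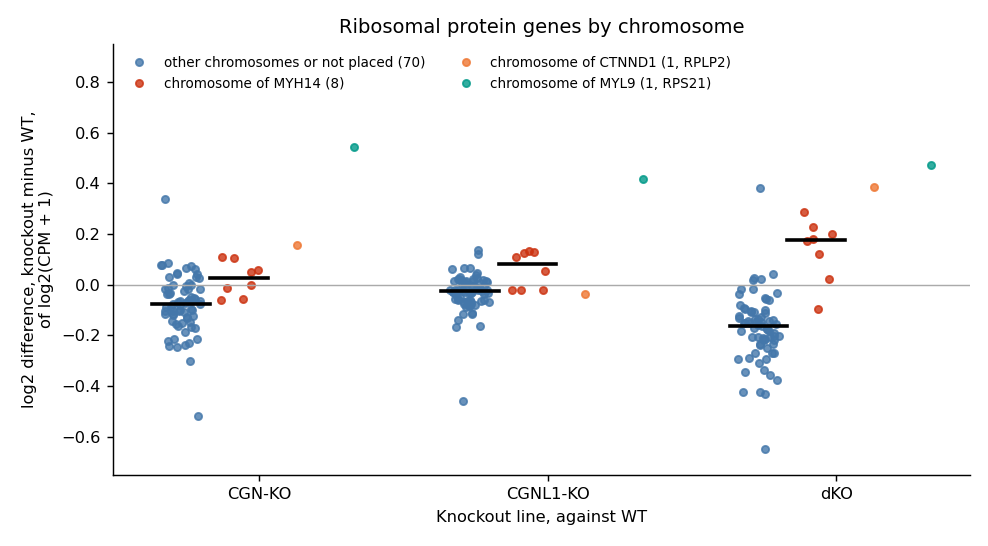
Difference in log2(CPM + 1) from WT for each of the 80 genes in the 3 KO lines, split by chromosome. Points are genes and black bars are medians. In dKO the 8 genes on the chromosome of MYH14 have a median of 0.18 and the 70 genes on other chromosomes or, for 3 of them, not placed a median of -0.16, and in CGN-KO and CGNL1-KO these medians are 0.03 and -0.07, and 0.08 and -0.03.

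The 5 tested genes on each side of RPS3A, RPS14, RPS21 and RPLP2 were looked at after the values were known. Of the 10 around RPS3A, 3 were lower in each KO line and the other 7 were not called. Over all genes tested 7.87% (CGN-KO), 3.49% (CGNL1-KO) and 11.5% (dKO) were lower. On one side of RPS3A the 3 nearest genes, SH3D19, FAM160A1 and GATB, were lower in all 3 KO lines, with log2 differences of -0.64, -0.30 and -0.43 for CGN-KO, -0.53, -0.37 and -0.46 in CGNL1-KO, and -0.61, -0.37 and -0.50 in dKO (limma, adjusted p at most 0.00547). The next gene, FBXW7, and the 5 genes on the other side of RPS3A, beginning with LRBA, were not called in any line.

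Of the 10 genes around RPS14, 4 (CGN-KO), 2 (CGNL1-KO) and 4 (dKO) were higher and the others were not called. The shares of all genes tested that were higher were 11.2%, 6.81% and 14.8%. DCTN4, RBM22, SYNPO, HMGXB3 and LOC106558732 passed the test in no line. NDST1 was higher in CGN-KO (0.56) and dKO (0.60), and was at 0.10 without a call in CGNL1-KO, which was also the order of RPS14. CD74, the invariant chain of antigen presentation, was higher in all 3 lines (0.90, 0.54 and 0.92). TCOF1, a nucleolar factor for ribosomal RNA synthesis, was higher in dKO (0.65, adjusted p = 0.00388). Of the 10 genes around RPS21, 8 (CGN-KO), 4 (CGNL1-KO) and 7 (dKO) were higher, and of the 10 around RPLP2, 3, 1 and 6 were. Of the 316 other genes on the chromosome of MYL9, which holds RPS21, 137, 118 and 126 were higher. Of the 397 on that of CTNND1, which holds RPLP2, 73, 36 and 263 were. How far the differences of neighbours account for those of the members was not tested.

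**Figure D5:**
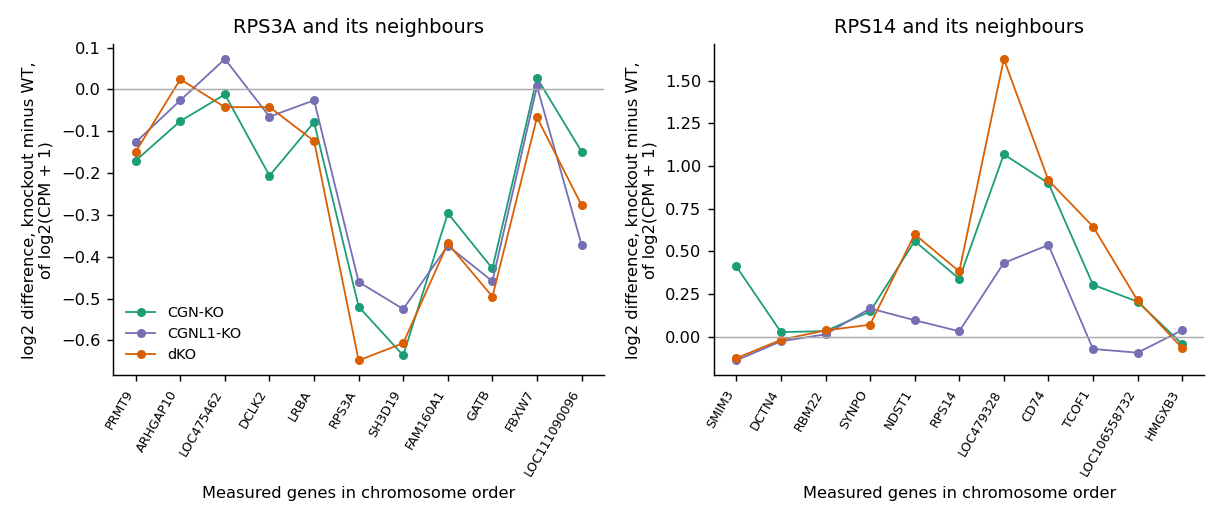
Difference in log2(CPM + 1) from WT in the 3 KO lines for RPS3A (left) and RPS14 (right) and the 5 tested genes on each side, in chromosome order; the axis counts genes, not distance. RPS3A and the 3 genes after it lie between -0.30 and -0.65 in all lines, while the genes before it lie above -0.21. RPS14 and NDST1 are at 0.34 to 0.60 in CGN-KO and dKO and at 0.03 and 0.10 in CGNL1-KO.

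The single KO lines were compared with the same 3 WT libraries, so the 3 comparisons with WT are not independent. In CGN-KO 4 of 80 members were called, or 5%, compared with 19.0% of all genes tested, of which 11.2% were higher and 7.87% lower. RPS14 and RPS21 were higher, and RPS3A and RPS15A (-0.25 ± 0.07, limma adjusted p = 0.0171) were lower. All 4 are genes of the 40S subunit. The median over the members was -0.06, and 58 of 80 lay below 0. The values did not overlap with WT in 17 members that were lower and 6 that were higher, or 21.25% and 7.5%, compared with 17.5% and 18.4% of all genes. The count of members called was 13 without CGN-KO replicate 1, the library with the highest member total of its genotype, and 8 without CGNL1-KO replicate 1.

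In CGNL1-KO 2 of 80 members were called, or 2.5%, compared with 10.3% of all genes (6.81% higher and 3.49% lower): RPS21 was higher and RPS3A lower. The median over the members was -0.02, and it was 0.03 without WT replicate 3. The 3 values lay below WT in 1 member, compared with 11.1% of all genes, and above WT in 6, compared with 13.3%. Across the 3 KO lines 37 members, or 46.25%, were called in none, compared with 65.8% of all genes tested. RPS3A and RPS21, or 2.5%, were called in all, compared with 5.76% of all genes. The F test across the 4 genotypes called 31 members, or 38.75%, compared with 29.9% of all genes. This count was 20 without CGNL1-KO replicate 3, 14 without dKO replicate 2 and 8 without dKO replicate 3.

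Direct comparisons asked which members differed between KO lines. Between dKO and CGNL1-KO, 19 members were called, 17 lower and 2 higher in dKO, or 23.75% compared with 14.4% of all genes (6.29% lower and 8.12% higher). The count was 5 without CGNL1-KO replicate 3, 7 without dKO replicate 2 and 6 without dKO replicate 3. The largest falls were those of RPL9 (-0.40 ± 0.11), RPS27A (-0.39 ± 0.11) and RPL36A (-0.38 ± 0.09), and RPLP2 (0.42 ± 0.07) and RPS14 (0.35 ± 0.06) were higher, with limma adjusted p-values of 0.0165, 0.0262, 0.00978, 0.00126 and 0.000518. Between dKO and CGN-KO 2 members were called, both lower, or 2.5%, compared with 8.84% of all genes called and 3.91% lower. The count was 1 without WT replicate 2, without replicate 2 or 3 of either single KO line, or without any of the 3 dKO libraries, and 6 without CGNL1-KO replicate 1. RPL17, a protein of the exit tunnel, was at 602, 573 and 544 CPM in dKO and 711, 670.2 and 690.2 CPM in CGN-KO (-0.27 ± 0.05, adjusted p = 0.00573), and RPL21 was lower by a smaller margin (-0.17 ± 0.05, adjusted p = 0.0488). Calls aside, 68 of 80 members were below 0 between dKO and CGN-KO, with a median of -0.09, compared with 0.00 over all genes. The dKO values lay below all CGN-KO values in 30 members and above them in 7, compared with 1891 and 1965 of 12650 genes.

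Between CGN-KO and CGNL1-KO 2 members were called, or 2.5%, compared with 5.19% of all genes. RPS14 was higher in CGN-KO (0.31 ± 0.06, limma adjusted p = 0.00265). RPL22, a 60S protein that also regulates other mRNAs, was at 106, 99.5 and 98.4 CPM in CGN-KO and 116, 117 and 121 CPM in CGNL1-KO (-0.21 ± 0.05, adjusted p = 0.0293), without overlap. Without replicate 2 or 3 of either line 1 member was called, RPS14.

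Other genes of translation were counted by list, each read against the 26.3% of all genes called in dKO (11.5% lower and 14.8% higher). The lists share genes: EEF1G is in both the elongation and the TOP list. The TOP list also holds FAU and RACK1, the ribosomal protein genes described above, so its counts include them. Of 20 other tested mRNAs with a TOP start, 8 were lower and 2 higher in dKO, with a median of -0.13. NACA, which shields new chains, was lower (-0.31), and the higher ones were FAU and EEF1G (0.24), both on the chromosome of CTNND1. Of 12 elongation and termination factors, 6 were lower and 1, EEF1G, higher. Of 34 initiation factors, 6 were lower and 2 higher, and EIF2S3, a subunit of the factor that brings the initiator tRNA, went from 402 to 303 CPM on average (-0.41, limma adjusted p = 0.000162). In CGN-KO 5 of the elongation factors, 7 of the initiation factors and 4 of the TOP mRNAs were lower and none higher, or 41.7%, 20.6% and 20% lower. Over all genes tested 7.87% were lower and 11.2% higher in CGN-KO. In CGNL1-KO 1, 0 and 0 were lower and 0, 2 and 0 higher, where 3.49% of all genes were lower and 6.81% higher.

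Of 60 ribosome assembly genes, 3 were higher and 3 lower in dKO (median 0.01), 1 and 7 in CGN-KO, and none passed in CGNL1-KO. In CGN-KO 11.7% of them were lower, compared with 7.87% of all genes. PES1, needed for 60S assembly, was higher in CGN-KO and dKO (0.18 and 0.27), RPF1 and RPF2 were lower in both, and fibrillarin (FBL), on the chromosome of MYH14, was higher in dKO (0.25). Of 13 genes for RNA polymerase I, 2 were higher and 2 lower in dKO. Of 75 mitochondrial ribosomal protein genes, 5 were higher and 8 lower in dKO, with a median of -0.01. All 5 that were higher, MRPL21 and MRPS12 among them, lie on the chromosomes of MYH14, CTNND1 or MYL9, which hold 8 of the 75 genes. Of the other 67, 8 were lower and none higher.

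Of 21 regulators of ribosomal protein synthesis, 3 were higher and 3 lower in dKO, or 28.6% called, compared with 26.3% of all genes, with a median of -0.04. The regulators named here were chosen for the smallest adjusted p of the list. RPS6KB1, the S6 kinase, was higher in all 3 KO lines, from 115 CPM in WT to averages of 132 (CGN-KO), 144 (CGNL1-KO) and 156 CPM (dKO) (0.20, 0.32 and 0.44, limma adjusted p = 0.0132, 0.000599 and 1.28e-05). EIF4EBP1, the repressor of cap-dependent initiation, was lower in CGN-KO and dKO (-0.39 and -0.44, adjusted p = 0.00249 and 0.000735). GABPA, a transcription factor that binds many ribosomal protein promoters, was lower in all 3 lines (-0.38, -0.32 and -0.31). CDKN1A, the p53 target p21, was higher in CGN-KO and CGNL1-KO (0.24 and 0.42) and at -0.15 without a call in dKO.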

How the data were processed

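MDCKII RNA was sequenced by the authors from stranded mRNA libraries. Per the submitters' processing notes, reads were aligned to CanFam3.1 with STAR 2.7.0f and counted with HTSeq 0.9.1. The authors normalized with edgeR and deposited CPM, here treated as a signal, for 13672 genes. The annotation release and strand setting are not given in the sources used here. Whole reads were recovered from the steps of the deposited signal (100% of values within 0.01 of a whole read), and the authors' denominator was the read total times the TMM factor (largest difference 1.11e-10).

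The 12650 genes above 1 CPM in 3 or more libraries were tested on log2(CPM + 1) with limma 3.58.1 in R 4.3.3 (lmFit, eBayes with a trend), in 1 fit of 4 genotypes without a replicate block, with Benjamini-Hochberg adjustment. Every adjusted p is from limma. Differences are on this scale, which understates changes of scarce genes. The design foresaw plain CPM, whereas the TMM scaling lets the sums differ between libraries.

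Alternatives were pseudocounts of 0.5 and 5, no filter, unscaled totals, a replicate block, the compared genotypes only, leaving out each library, and tests on the recovered reads with edgeR 4.0.16 and DESeq2 1.42.0. edgeR called 2429, 1264 and 3327 genes in CGN-KO, CGNL1-KO and dKO against WT, where limma called 2408, 1302 and 3333. An alternative without the members on the chromosomes of MYH14, CTNND1 and MYL9 was chosen after seeing the data. CGN-KO and CGNL1-KO libraries with the same number deviated together (correlations across genes 0.632, 0.475 and 0.179), each above the limit of 0.1 used for pairing. The labels give no pairing, and correlations between libraries with different numbers were not computed, so pairing is not shown. The scripts were tested on simulated data.

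Named members are the 8 largest rises and falls called in each KO line against WT, the 3 largest each way between KO lines, the 5 highest and lowest in WT, the 5 with the widest spread, the paralog forms, FAU and RACK1, and examples from structural groups. From each other list, up to 4 genes with the smallest adjusted p over the 3 comparisons with WT are named, so they do not stand for their list. Some genes that these rules select are not reported here by name and are left out of the plots that name genes, and they stay in the counts and medians. Members and lists were chosen with earlier results of these data known. RPL34_1, RPLP0P and chromosome neighbours were named after their values were seen. Plots were drawn with matplotlib 3.10.9.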

Additional observations from a re-analysis of the deposited data

Results flagged for a closer look

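Listed here are 9 differences between KO lines, at most the 3 largest each way per comparison. They were called by limma in the same fit, with Benjamini-Hochberg adjustment over all genes tested. All members called numbered 2 between CGN-KO and CGNL1-KO, 2 between dKO and CGN-KO and 19 between dKO and CGNL1-KO. RPS14 was higher in CGN-KO than in CGNL1-KO by 0.31 on the log2 scale and higher in dKO than in CGNL1-KO by 0.35, and it stayed called without any 1 of the 12 libraries. RPLP2 was higher in dKO than in CGNL1-KO by 0.42, also without any 1 library. RPL17 was lower in dKO than in CGN-KO (-0.27), again without any 1 library, and RPL21 was lower there too (-0.17) but lost its call in 11 of the 12 fits that left out a library. RPL22 was lower in CGN-KO than in CGNL1-KO (-0.21) and lost its call in 4 of these fits. RPL9 (-0.40), RPS27A (-0.39) and RPL36A (-0.38) were lower in dKO than in CGNL1-KO and lost their calls in 2, 4 and 2 of the 12 fits. Dixon's test for single libraries was not run, since each group has 3.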

How the results depend on the processing

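The direction and the median of the members in dKO against WT held with a library left out (-0.18 to -0.12) and under the other processing alternatives. Pseudocounts, unscaled totals, edgeR and DESeq2 left 42 to 48 members called. Without the members on the 3 chromosomes the median was -0.16. These chromosomes were chosen with their values known and hold most of the members higher in dKO, so this value is no check of the result. With a library left out, the members called numbered 18 to 44 in dKO, 3 to 13 in CGN-KO and 2 to 3 in CGNL1-KO against WT, 1 to 2 between CGN-KO and CGNL1-KO, 1 to 6 between dKO and CGN-KO, 5 to 25 between dKO and CGNL1-KO, and 8 to 41 in the F test. With the replicate block, over the 11 numbered libraries, 13 members were called in CGN-KO against WT and 31 between dKO and CGNL1-KO. These numbers were not shown to pair the libraries (same-number correlations of WT with the single KO lines were 0.32 to 0.37 for replicates 1 and 2, -0.08 with CGN-KO and 0.01 with CGNL1-KO for replicate 3, and those of dKO with the others ran from -0.24 to 0.09). Between CGN-KO and CGNL1-KO, where each correlation passed the limit for pairing, the block changed no count. DESeq2 called 4 members in CGNL1-KO against WT, 10 between dKO and CGN-KO and 32 between dKO and CGNL1-KO. Between dKO and CGN-KO, 1 member was called without the filter, 4 with unscaled totals and 5 with the compared genotypes only. Between CGN-KO and CGNL1-KO, 1 was called with unscaled totals and 1 with the compared genotypes only, and unscaled totals moved the median from -0.05 to -0.0011. The causes were not tested. Of 30 differences of named members, each recomputed under 20 alternatives, 563 of 600 values stayed on the same side of the threshold, 37 lost the call and 0 reversed. Small differences of members with few reads may have gone undetected. For RPL39 the 95% interval of the log2 difference between dKO and WT ran from -0.46 to 0.20.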
